A study of Mus musculus with 6 samples.

Results

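Mitochondrial ribosomal protein genes were taken as the rows of the deposited gene comparison whose symbol begins with Mrpl or Mrps followed by a digit, which gave 75 of 23793 rows, 47 named for the large and 28 for the small subunit. The study sequenced messenger RNA from i660BM cells, a cultured pro-B cell line of C57BL/6 mice that depends on interleukin 7 and carries a PU.1 gene that doxycycline switches on. Spi1 encodes PU.1, a transcription factor of the ETS family that acts in myeloid and B cells. There were 3 induced libraries, whose cells had 48 h in 70 ng/ml doxycycline, and 3 non-induced libraries of the same line that had none. All cells carry the inducible gene, and doxycycline was given only together with induction, so effects of the drug and of PU.1 cannot be told apart. Doxycycline is a tetracycline, a class that binds the small subunit of bacterial ribosomes and is known to slow translation in mitochondria as well.

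The mitochondrial ribosome sits in the mitochondrial matrix and makes the few proteins that the mitochondrial genome encodes, all of them subunits of the respiratory chain and ATP synthase. Its RNAs come from the mitochondrial genome, whereas its proteins are encoded in the nucleus, made in the cytosol and imported. Some of these proteins descend from proteins of the bacterial ribosome and others are specific to mitochondria.

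For each gene the files gave a single FPKM, a fragment density scaled by transcript length and by depth, in each group, so no spread between libraries can be shown. A gene is called when the authors tested it and their Cuffdiff q-value, the p-value adjusted over all tested rows, was under 0.05. The lowest deposited q was 0.000287, a value that 1855 rows shared, so it does not rank the genes that have it. The steps between the lowest FPKM values correspond to about 40.6 M fragments (M, mega) per library in induced and 39.7 M in non-induced cells. Spi1 was listed at 246 FPKM in induced and 36.0 FPKM in non-induced cells in the authors' deposited table (log2 2.78, q = 0.000287). Among 12 pro-B cell markers, 10 were tested and 7 called higher (70%, against 19.0% of all tested rows), Il7r by the most. The tested ones lay at 83.4 to 1566 FPKM in induced and 43.5 to 831 FPKM in non-induced cells. Kit was listed at 0 in both groups, and Ptprc, which encodes the pan-leukocyte antigen CD45, at 0.0649 FPKM in induced and 0.00608 FPKM in non-induced cells. The authors tested neither gene. A value near 0 in an untested row can be a failed estimate and does not show that the gene was silent. The 7 stromal markers were listed at 0 in both groups, apart from Pdgfra at 0.00107 FPKM in induced cells. Among 11 macrophage and granulocyte markers Cd14 had the highest value, 0.995 FPKM in induced cells and 0 in non-induced cells. It was the 1 marker of this list that was tested, and it was called higher (q = 0.000287). The other 10 were not tested, so no call exists for them. The T cell markers Cd3e and Cd4 were listed at 0 in both groups, while Lck fell to 46.1 FPKM in induced cells, against 66.0 FPKM in non-induced cells. The part of these shifts in the members' values was not tested.

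Stretches around the start sites are shown here for 4 members: Mrps27, the member with the largest fall; Mrps26, a called member with matches to 2 different motifs; Mrps11, whose start lies beside that of the large subunit gene Mrpl46 on the other strand; and Mrps10, the 1 member with a PU.1 match. Each runs 5′ to 3′ on the gene's strand, from 250 bases before to 50 bases after the RefSeq start (GRCm38.p6). Capitals mark matches on either strand to CCGGAAG (ETS family), GAGGAAGT (PU.1), AAGATGG (YY1) or GCGCA followed by any base and GCGC (NRF1). The windows are chr13:99344536-99344835 for Mrps27, chr2:130563507-130563806 for Mrps26, chr7:78782881-78783180 for Mrps11 and chr17:47368947-47369246 for Mrps10, all on the plus strand.
Mrps27: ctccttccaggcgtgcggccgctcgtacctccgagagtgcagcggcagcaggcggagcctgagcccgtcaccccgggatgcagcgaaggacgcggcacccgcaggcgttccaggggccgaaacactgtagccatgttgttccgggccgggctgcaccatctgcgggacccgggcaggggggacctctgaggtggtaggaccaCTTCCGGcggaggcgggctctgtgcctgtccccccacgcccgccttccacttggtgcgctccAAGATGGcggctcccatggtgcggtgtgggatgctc
Mrps26: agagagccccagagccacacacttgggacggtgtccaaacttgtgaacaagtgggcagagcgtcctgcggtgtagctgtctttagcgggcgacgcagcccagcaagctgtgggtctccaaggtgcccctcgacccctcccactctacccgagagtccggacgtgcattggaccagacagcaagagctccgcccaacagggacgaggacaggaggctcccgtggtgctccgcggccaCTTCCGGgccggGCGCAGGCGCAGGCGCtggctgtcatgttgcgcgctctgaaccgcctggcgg
Mrps11: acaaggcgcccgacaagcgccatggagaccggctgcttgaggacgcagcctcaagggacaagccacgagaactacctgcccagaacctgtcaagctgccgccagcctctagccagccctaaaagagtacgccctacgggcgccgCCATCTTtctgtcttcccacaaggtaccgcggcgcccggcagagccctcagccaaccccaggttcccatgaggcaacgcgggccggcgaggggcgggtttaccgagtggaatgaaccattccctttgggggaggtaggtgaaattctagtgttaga
Mrps10: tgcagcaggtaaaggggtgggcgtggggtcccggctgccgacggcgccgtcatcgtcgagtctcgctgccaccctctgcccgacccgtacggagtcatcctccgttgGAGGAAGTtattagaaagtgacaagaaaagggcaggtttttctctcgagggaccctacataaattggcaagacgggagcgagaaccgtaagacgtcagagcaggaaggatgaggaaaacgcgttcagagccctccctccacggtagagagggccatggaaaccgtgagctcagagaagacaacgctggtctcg

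ETS and PU.1 letters share GGAAG but differ in the base before it, so 1 stretch cannot match both. In Mrps27 the capitals mark an ETS and a YY1 match, and in Mrps26 an ETS match followed by a pair of overlapping NRF1 matches. In the Mrps11 window the capitals mark a YY1 match, the RefSeq start of Mrpl46 is base 209 and that of Mrps11 is base 251, so the genes run apart from starts 42 bases from each other. Of the 75 members 66 had a window in the RefSeq set, and 41 of these held at least 1 of the 4 motifs. The ETS letters stood in 23 of 66 members (34.8%), against 22.6% of 8015 tested genes with windows and 9.93% of all 27025 genes with windows. NRF1 letters stood in 13 members (19.7%), against 12.9% of the tested genes. YY1 letters also stood in 13 members (19.7%), against 9.10% of the tested genes. The PU.1 letters stood in 1 member (1.52%), against 3.84% of the tested genes. ETS letters were found in 3 of the 12 called members with a window and in 20 of the 53 that were tested and not called. For NRF1 these counts were 4 of 12 and 9 of 53, and for YY1 they were 3 of 12 and 10 of 53. The median log2 change of the 23 members with ETS letters was -0.08, and that of the 42 tested members with a window and without them was -0.14. For NRF1 these medians were -0.13 (13 members) and -0.14 (52 members), and for YY1 -0.13 (13 members) and -0.13 (52 members). The 1 member with PU.1 letters had a change of -0.13, as did the median of the 64 without them. Differences between these medians were not tested. The motif counts are matches of letters in the windows and do not show binding.

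Transcripts of the mitochondrial ribosome were slightly lower in induced cells, across both subunits. Of the 74 tested members 63 had a lower value in induced cells, and the median log2 change was -0.13, a level of 91.2% of that in non-induced cells. The median over all 10657 tested rows was -0.01, with 51.4% of rows lower. Of the members, 14 were called lower (18.9%) and 0 higher in the authors' deposited table. Over all tested rows the percentages were 16.1% lower and 19.0% higher, so the share of members called lower was near the background, while the share called higher was below it. The same comparison over the 8428 tested rows in the members' range of mean FPKM gave 16.1% called lower, 18.0% called higher and a median log2 change of -0.02. In bulk RNA, fewer cells with a transcript and less transcript per cell cannot be told apart.

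The falls were small. The 14 called members stood at 77.5% to 87.1% of their non-induced level, falls of 1.15-fold to 1.29-fold. None reached 1.5-fold, a size that 10.2% of all tested rows reached and passed the q threshold. The authors' deposited table also holds a test statistic, and the log2 change divided by it is given as an implied standard error, a reading that the table itself does not state. For members its median was 0.13, about as large as the median change. With two-sided normal p-values from that statistic, adjusted by the Benjamini-Hochberg method, 0 members were called, against 15.2% of all tested rows. Before adjustment, 6 of 74 members had a normal p under 0.05, against 23.9% of all tested rows. By the authors' own unadjusted p, 25 of 74 members were under 0.05 and lower, against 20.4% of all tested rows, and 0 were under 0.05 and higher, against 22.0% of all tested rows. At a q under 0.01, 6 members were called lower, against 11.1% of all tested rows. Nothing in the labels ties the 3 libraries of a group to separate cultures. These p-values thus cannot be read as covering the spread between cultures, and the spread between libraries that enters them may be technical.

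**Figure D1:**
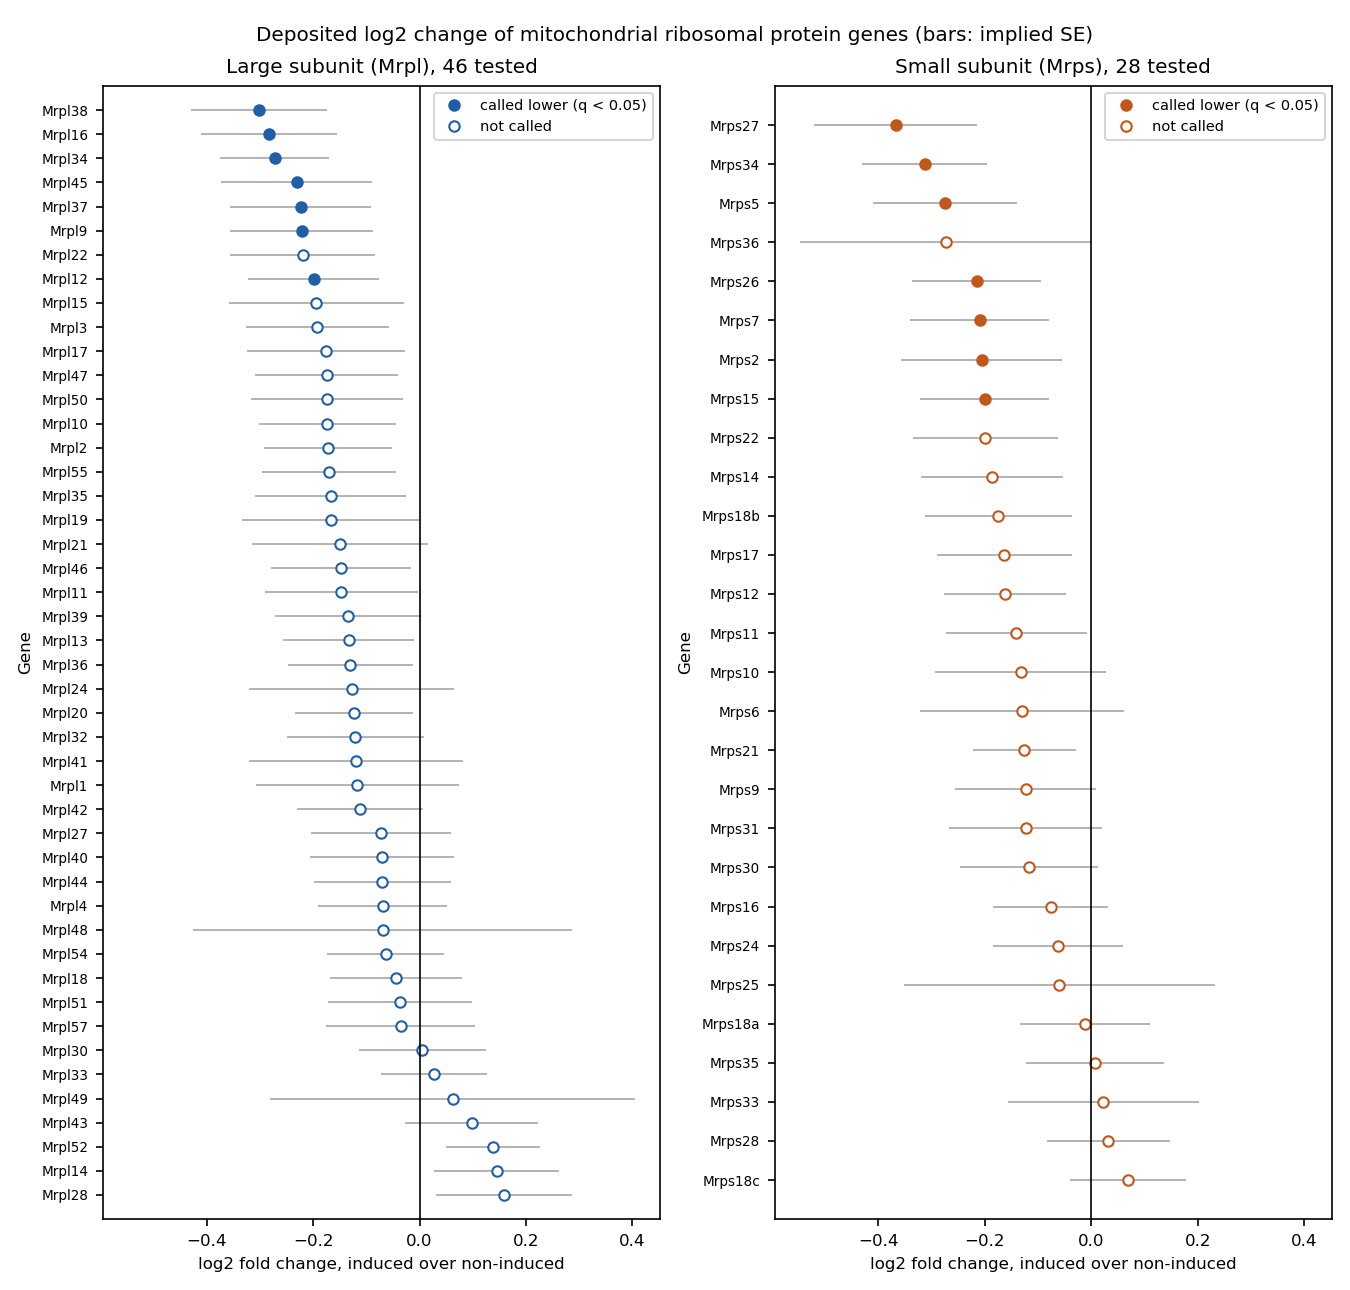
Deposited log2 fold change, induced over non-induced, of each of the 74 tested members (46 Mrpl on the left, 28 Mrps on the right), ordered by change, with the implied standard error as a bar. Filled points were called lower (14 genes), and open points were not called. Most points lie left of 0 in both panels, 39 of the large and 24 of the small subunit.

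Large and small subunit genes had similar median changes. In the large subunit 7 of 46 tested members were called lower (15.2%), in the small subunit 7 of 28 (25%), and 0 were called higher in either. Of all tested rows 16.1% were called lower and 19.0% higher. The median log2 change was -0.13 for the large and -0.14 for the small subunit, a difference of 0.01. Summed FPKM was 2957 in induced and 3145 in non-induced cells for the large subunit genes, which is 94.0%. For the small subunit genes it was 1485 in induced and 1618 in non-induced cells, which is 91.7%. No test of this difference was made, since genes are not replicates. By structures of the mitochondrial ribosome the products of Mrps30 and Mrps18a sit in the large subunit, and the product of Mrps36 is now counted with the alpha-ketoglutarate dehydrogenase complex. Grouped in that way, 7 of 48 large (14.6%) and 7 of 25 small subunit genes (28%) were called lower, with medians of -0.13 and -0.14.

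The largest falls in the small subunit were those of Mrps27 and Mrps34. MRPS27 is a pentatricopeptide repeat protein, a kind of RNA-binding protein, and its gene spans 99344786 to 99415562 of chromosome 13 (mm10, plus strand). It was listed at 25.6 FPKM in induced and 33.1 FPKM in non-induced cells in the authors' deposited table (log2 -0.37, with an implied standard error of 0.15, q = 0.000287). It shares its locus in the table with another row, so fragments can have been split. Its neighbour Ptcd2, another pentatricopeptide repeat gene that starts 81 bases away on the other strand, stood at 35.2 FPKM in induced and 39.9 FPKM in non-induced cells and was not called (log2 -0.18, q = 0.0901). Mrps34, whose product stabilises the small subunit in mice, lies on chromosome 17 at 24895116 to 24897502. It had 50.1 FPKM in induced and 62.3 FPKM in non-induced cells in the authors' deposited table (log2 -0.31, with an implied standard error of 0.12, q = 0.00104).

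Of the 5 other small subunit genes that were called lower, 4 encode relatives of bacterial proteins. Mrps5, whose product lines the messenger RNA entry, was at 44.0 FPKM in induced and 53.3 FPKM in non-induced cells in the authors' deposited table (log2 -0.28, q = 0.00478). The other member listed at the entry, Mrps24, was not called, at 52.4 FPKM in induced and 54.7 FPKM in non-induced cells (log2 -0.06, q = 0.632). Mrps7, which encodes a protein of the head, had 64.0 FPKM in induced and 74.0 FPKM in non-induced cells in that table (log2 -0.21, q = 0.0377). Mrps2 stood at 34.3 FPKM in induced and 39.6 FPKM in non-induced cells there (log2 -0.21, q = 0.0409). Mrps15 lay just inside the threshold, with 90.2 FPKM in induced and 103.6 FPKM in non-induced cells in the authors' deposited table (log2 -0.20, q = 0.0495). The mitochondria-specific member Mrps26 was at 73.2 FPKM in induced and 85.1 FPKM in non-induced cells there (log2 -0.22, q = 0.0381).

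Just outside the threshold were Mrpl3 and Mrps22, genes in which human mutations cause defects of mitochondrial translation. Mrpl3 was listed at 69.2 FPKM in induced and 79.1 FPKM in non-induced cells in the authors' deposited table (q = 0.0583). Mrps22 was listed at 38.4 FPKM in induced and 44.1 FPKM in non-induced cells there (q = 0.0608). Mrps12, the protein of the decoding site, did not pass either, at 52.3 FPKM in induced and 58.6 FPKM in non-induced cells of the same table (log2 -0.16, q = 0.152).

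In the large subunit the largest falls were those of Mrpl38, Mrpl16 and Mrpl34. Mrpl38, which encodes a mitochondria-specific protein of the central protuberance, spans 116131817 to 116138868 of chromosome 11 (minus strand). It had 36.6 FPKM in induced and 45.0 FPKM in non-induced cells in the authors' deposited table (log2 -0.30, with an implied standard error of 0.13, q = 0.0026). The other 6 proteins of the central protuberance listed here (Mrpl18, Mrpl27, Mrpl40, Mrpl46, Mrpl48 and Mrpl55) were all lower in induced cells without being called. Of the 7, 1 was thus called lower (14.3%, against 16.1% of all tested rows), and their median was -0.07. Of all tested members 85.1% were lower in value. Mrpl16, a relative of bacterial L16 near the tRNA sites, lies on chromosome 19 at 11770391 to 11774960. It was at 52.5 FPKM in induced and 63.8 FPKM in non-induced cells in the authors' deposited table (log2 -0.28, with an implied standard error of 0.13, q = 0.00402). Mrpl34 had 91.1 FPKM in induced and 110.03 FPKM in non-induced cells there (log2 -0.27, with an implied standard error of 0.10, q = 0.00696).

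The tunnel through which new proteins leave the large subunit is rimmed by products of Mrpl17, Mrpl22, Mrpl23, Mrpl24, Mrpl45 and Mrpl47. All 5 tested rim genes were lower in induced cells, with a median log2 change of -0.18. Of the 5, 1 was called lower (20%, against 16.1% of all tested rows). This was Mrpl45, whose product contacts the inner membrane, at 25.9 FPKM in induced and 30.4 FPKM in non-induced cells in the authors' deposited table (log2 -0.23, q = 0.0250). Of the 3 genes of the stalk that recruits translation factors and of its base, Mrpl12 was called and Mrpl10 and Mrpl11 were not. Mrpl12 stood at 170 FPKM in induced and 195 FPKM in non-induced cells in the authors' deposited table (log2 -0.20, q = 0.0470). Mrpl10 was at 52.1 FPKM in induced and 58.7 FPKM in non-induced cells there (q = 0.0985), and the same values for Mrpl11 were 20.8 and 23.1 FPKM (q = 0.171). The other called members were Mrpl37, at 60.8 FPKM in induced and 71.0 FPKM in non-induced cells, and Mrpl9, at 64.0 FPKM in induced and 74.6 FPKM in non-induced cells, in the authors' deposited table (q = 0.0234 and 0.0271).

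The 11 tested members with a higher value in induced cells were not called. Mrpl28 had the highest log2 change, 0.16, with 102.1 FPKM in induced and 91.4 FPKM in non-induced cells in the authors' deposited table (q = 0.135). Mrpl14 and Mrpl52 followed with log2 changes of 0.15 and 0.14 there (q = 0.235 and 0.218). The other 8 were Mrpl30, Mrpl33, Mrpl43, Mrpl49, Mrps18c, Mrps28, Mrps33 and Mrps35, with log2 changes of 0.10 or less in that table.

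The 3 Mrps18 genes encode proteins related to each other that occupy different places in the ribosome. Mrps18a stood at 105 FPKM in induced and 106 FPKM in non-induced cells, and Mrps18c at 106 FPKM in induced and 101 FPKM in non-induced cells, in the authors' deposited table (q = 0.942 and 0.594). Mrps18b was expressed at a lower level, with 24.8 FPKM in induced and 28.0 FPKM in non-induced cells there (log2 -0.17, q = 0.127).

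By the uniform names of ribosomal proteins, members named for a bacterial counterpart and members named as specific to mitochondria had similar medians, Mrps36 left aside. Those names count Mrps18c with the bacterial and Mrps18a and Mrps18b with the specific members, although the 3 proteins are related. Of 45 tested members named for a bacterial counterpart 8 were called lower (17.8%), with a median log2 change of -0.15. Of 28 named as mitochondria-specific 6 were called lower (21.4%), with a median of -0.11. The share called lower over all tested rows was 16.1%. By place in the structure, the 19 mitochondria-specific members of the large subunit had 3 called (15.8%) and a median of -0.07. The 9 of the small subunit had 3 called (33.3%) and a median of -0.17. Members named for a bacterial counterpart had close medians, -0.15 for the 29 tested of the large subunit and -0.14 for the 16 of the small. Of these, 4 were called in the large (13.8%) and 4 in the small subunit (25%).

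Levels differed far more between members than between groups. The tested members spanned 2.70 to 193 FPKM in induced cells, a 71.6-fold range, and 3.26 to 203 FPKM in non-induced cells, with medians of 46.7 FPKM in induced and 49.0 FPKM in non-induced cells. Across the 74 genes the log2 levels of the groups correlated with Pearson's r = 0.996, a description across genes that share libraries. By mean over the groups Mrpl20 was highest, at 186 FPKM in induced and 203 FPKM in non-induced cells in the authors' deposited table. Mrpl33 had 193 FPKM in induced and 189 FPKM in non-induced cells, and Mrpl52 had 191 FPKM in induced and 174 FPKM in non-induced cells, in that table. Mrpl12, given above, and Mrpl18, at 174 FPKM in induced and 179.9 FPKM in non-induced cells there, completed the 5 highest.

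The lowest tested member was Mrps36, at 2.70 FPKM in induced and 3.26 FPKM in non-induced cells in the authors' deposited table (log2 -0.27, q = 0.162). Mrpl17 had 7.62 FPKM in induced and 8.61 FPKM in non-induced cells, and Mrps33 had 7.97 FPKM in induced and 7.84 FPKM in non-induced cells, in that table. Mrpl1 and Mrps25 were next, at 15.003 and 15.5 FPKM in induced cells, against 16.3 and 16.2 FPKM in non-induced cells. Mrpl23 was the 1 member the authors did not test, listed at 0.290 FPKM in induced and 0.108 FPKM in non-induced cells of their deposited table. A value near 0 in an untested row can be a failed estimate, which cannot be checked without reads, and does not show that the gene was silent.

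**Figure D2:**
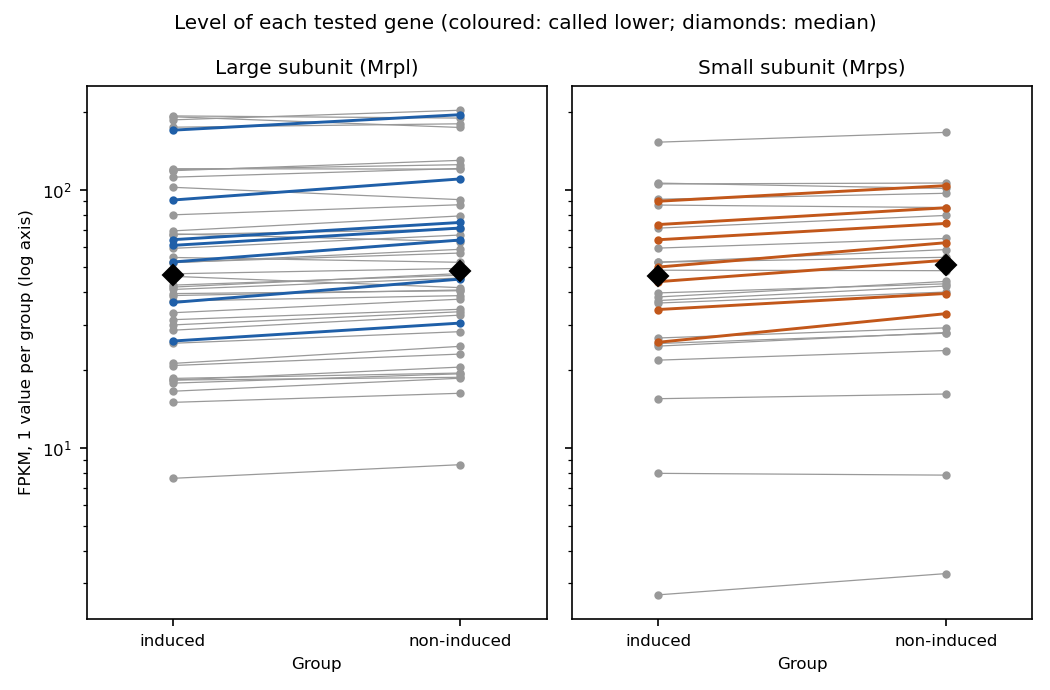
FPKM of each tested member in induced (left) and non-induced (right) cells on a log axis, 1 line per gene, for the large and small subunit. Coloured lines are the 14 genes called lower, and diamonds are the medians of the tested genes (46.7 and 48.4 FPKM for the large, 46.4 and 50.9 FPKM for the small subunit, induced first). The lines run nearly parallel, and the spread between genes is much wider than the step between groups.

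Rows in which a member's symbol stands second fell outside the rule. The joint row of Cuedc1 and Mrps23 was at 63.3 FPKM in induced and 72.9 FPKM in non-induced cells in the authors' deposited table (log2 -0.20, q = 0.0489), and the joint row of Ccdc142 and Mrpl53 was at 58.3 FPKM in induced and 58.7 FPKM in non-induced cells (q = 0.966). Mrps6 shares its row with Slc5a3, so its value of 26.6 FPKM in induced and 29.2 FPKM in non-induced cells there covers both genes.

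Genes of oxidative phosphorylation showed a like median, and genes of the cytosolic ribosome did not. Of 97 tested genes named Nduf, Sdh, Uqcr, Cox or Atp5, which include assembly factors, 17 were called lower (17.5%) and 5 higher (5.15%). Their median log2 change was -0.13, with 81.4% of genes lower. Of 78 tested cytosolic ribosomal protein genes 7 were called lower (8.97%) and 4 higher (5.13%), with a median of -0.01 and 53.8% of genes lower. The shares over all tested rows were 16.1% called lower and 19.0% called higher. Cytosolic ribosomal protein genes have many processed copies, so their values are less certain. These are descriptions side by side, and the differences between the lists were not tested.

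**Figure D3:**
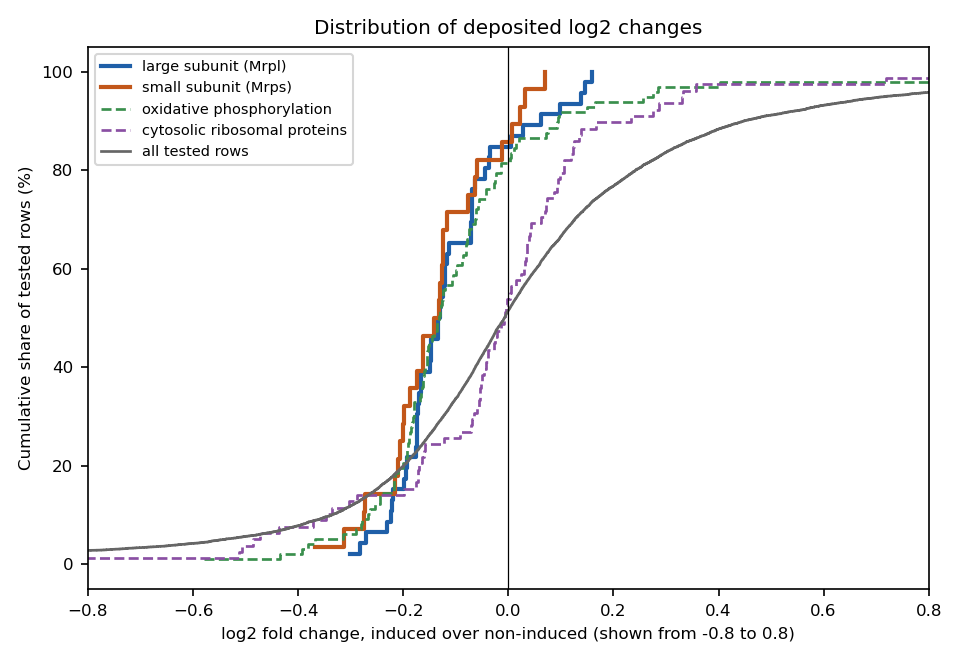
Cumulative share of tested rows by deposited log2 fold change, induced over non-induced, for the large and small mitochondrial ribosomal subunit, oxidative phosphorylation genes, cytosolic ribosomal protein genes and all tested rows; the axis is limited to changes between -0.8 and 0.8. The curves of both subunits reach their middle left of 0, beside that of oxidative phosphorylation (medians -0.13, -0.14 and -0.13). The cytosolic curve crosses 0 near its middle with all tested rows (both -0.01).

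Other genes of mitochondrial translation also had mostly lower values in induced cells. Of all tested rows 16.1% were called lower and 19.0% higher. Mitochondrial ribosomal proteins with other names had 1 of 6 tested members called lower (16.7%) and 0 higher, and all 6 were lower in value. The called gene was Ptcd3, a pentatricopeptide repeat protein of the small subunit, at 38.3 FPKM in induced and 46.0 FPKM in non-induced cells in the authors' deposited table (log2 -0.27, q = 0.00534). Translation factors had 5 of 14 tested members called lower (35.7%) and 0 higher, with a median log2 change of -0.20. Among them Taco1, an activator of translation of a cytochrome oxidase subunit, had 15.7 FPKM in induced and 19.7 FPKM in non-induced cells in the authors' deposited table (log2 -0.32, q = 0.00342). Tsfm and Tufm, the elongation factors Ts and Tu, had log2 changes of -0.30 and -0.27 there (q = 0.00302 and 0.0182), and the initiation factor gene Mtif2 one of -0.25 (q = 0.0191).

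Assembly and rRNA modification genes moved both ways, with 7 of 20 tested members called lower (35%) and 2 higher (10%) and a median log2 change of -0.16. The shares over all tested rows were 16.1% and 19.0%. The rRNA methyltransferase genes Ftsj2 and Rnmtl1 had log2 changes of -0.32 each in the authors' deposited table (q = 0.00766 and 0.00498). The higher pair was Mterfd2, whose product partners the rRNA methyltransferase Nsun4, and Tfb1m, a dimethyltransferase of the small rRNA. Mterfd2 was at 9.24 FPKM in induced and 5.61 FPKM in non-induced cells in the authors' deposited table (log2 0.72, q = 0.000287). Tfb1m was at 12.7 FPKM in induced and 10.3 FPKM in non-induced cells there (log2 0.30, q = 0.00818).

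Mitochondrial tRNA synthetases had 6 of 17 tested members called lower (35.3%) and 0 higher (median log2 -0.18), against 16.1% and 19.0% of all tested rows. Mars2 led, at 15.7 FPKM in induced and 20.6 FPKM in non-induced cells in the authors' deposited table (log2 -0.39, q = 0.000287). Nars2, Yars2 and Iars2 followed with log2 changes of -0.34, -0.34 and -0.32 there. Genes of mitochondrial transcription, messenger RNA handling and DNA replication had 8 of 20 tested members called lower (40%) and 0 higher (median -0.16). Tefm, the mitochondrial transcription elongation factor, was at 12.5 FPKM in induced and 18.8 FPKM in non-induced cells in the authors' deposited table (log2 -0.58, q = 0.000287). Peo1, which encodes the replicative helicase, Hsd17b10, a subunit of mitochondrial RNase P, and Lrpprc, which stabilises mitochondrial messenger RNA, had log2 changes of -0.42, -0.35 and -0.33 there. The 15 mitochondrially encoded genes looked for, the rRNAs of the mitochondrial ribosome among them, had 0 rows under the symbols used, so they have no values here.

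Of 9 tested nuclear regulators of mitochondrial genes 2 were called lower (22.2%) and 1 higher (11.1%), against 16.1% and 19.0% of all tested rows. Myc was listed at 125 FPKM in induced and 212 FPKM in non-induced cells in the authors' deposited table (log2 -0.76, q = 0.000287), and the coactivator gene Ppargc1b at 2.93 FPKM in induced and 4.41 FPKM in non-induced cells (log2 -0.59, q = 0.000287). Gabpb2, a partner of the ETS factor GABPA, rose to 29.6 FPKM in induced cells, against 22.2 FPKM in non-induced cells (log2 0.42, q = 0.00127). Gabpa itself had a log2 change of 0.25 there (q = 0.0944), Nrf1 had a log2 change of 0.16 (q = 0.164) and Yy1 one of 0.06 (q = 0.627), and none of these was called. Whether any of these genes plays a part in the members' values was not tested.

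**Figure D4:**
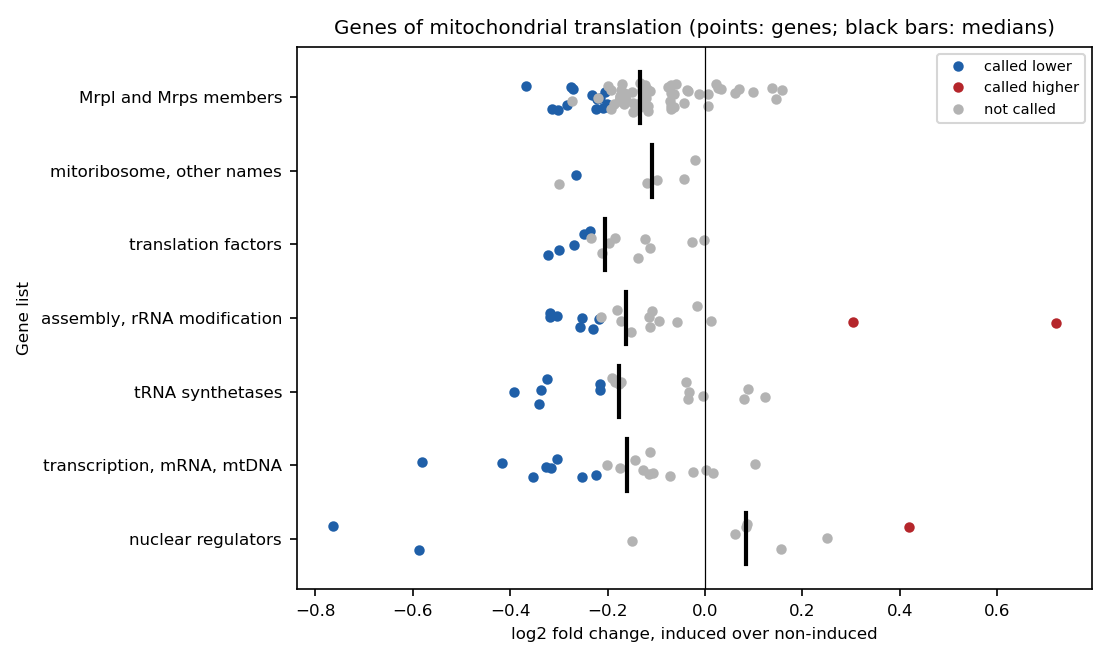
Deposited log2 fold change, induced over non-induced, of each tested gene in the members' list and 6 further lists of mitochondrial gene expression (rows); blue points were called lower, red points higher, grey points neither, and black bars are medians. Called falls appear in every list, and called rises are limited to Mterfd2, Tfb1m and Gabpb2.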

How the data were processed

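Stranded messenger RNA libraries were made from 3 induced and 3 non-induced samples, per the labels' protocols. The submitters' processing notes name build mm10 and the tools Cuffdiff 2.1.1, Cufflinks, TopHat2 2.0.9 and Trim Galore 0.2.8.1. Which annotation and strand setting were used is not given in the sources used here. Per gene, the authors deposited 1 FPKM value for each group and Cuffdiff's log2 fold change, p-value, q-value and test statistic, a score; these were used as deposited. They had tested 10657 of 23793 rows. No test per gene over libraries could be made.

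Members, subunits and gene lists were counted and their medians taken in Python 3.11.15 with pandas 2.3.3, numpy 2.4.6 and scipy 1.17.1. Genome-wide, the deposited q-values differed by at most 5.15e-07 from Benjamini-Hochberg values recomputed over the tested rows. The normal p-values cover the 10628 tested rows with a finite statistic. Their adjustment was tested on simulated normal statistics with planted changes larger than any of the members', so it does not bear on how many members are called. Coordinates are from GENCODE M21 (mm10), where all 75 loci overlapped the annotated gene. Depth was read from values of genes with 1 annotated transcript: 64.7% of low values in induced and 70.4% in non-induced cells lay within 0.15 of a whole number of steps, against 30% for evenly spread values, so it is approximate.

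Named were the called members, the 5 highest and 5 lowest by mean FPKM, untested members, those nearest the threshold, the Mrps18 genes and up to 4 called genes with the largest changes of each other list; further genes were named after their values were seen. The members and lists were chosen with earlier results of these data known.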

Additional observations from a re-analysis of the deposited data

How the results depend on the processing

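The count of 14 called members, 7 in each subunit, became 6 (3 in each subunit) at a deposited q under 0.01, a rule under which 11.1% of all tested rows were lower. It became 0 (0 in each subunit) at a 1.5-fold minimum, and 0 (0 in each subunit) with normal p-values from the Cuffdiff statistic, where 6 members were under 0.05 before adjustment. The count of members called higher was 0 under each of these rules. With filters on mean FPKM, without rows that share a locus or hold several symbols, and with subunits by structure, 13 or 14 members were called lower. Adding the joint rows of Mrps23 and Mrpl53, chosen after seeing the data, gave 15. The median log2 change of the members lay between -0.15 (FPKM rescaled to equal totals) and -0.13 (pseudocount of 1 FPKM, and median of all tested rows subtracted), and the large minus small difference was at most 0.0126, with subunits by structure. Group values alone were deposited, so leaving out single libraries was not run. No paired analysis was possible because the columns hold 1 value per group. Depth of single libraries is unknown, and changes of the members' size are near the implied standard error.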

Other observations

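Members often start close to another gene on the opposite strand. Of 74 tested members placed in GENCODE M21, 25 (33.8%) had an opposite-strand protein-coding gene starting within 500 bases, against 16.0% of 9651 tested genes. Among the 22 tested partners that are no members, 3 were called lower and 1 higher, while 16.1% and 19.0% of all tested rows were. The partners' median log2 change was -0.07, against -0.13 for the members beside them. Mrpl46 and Mrps11, which sit side by side, had log2 changes of -0.15 and -0.14 in the authors' deposited table, and neither was called. In GENCODE the starts of this pair overlap, and since the strand setting of the counting is not known, fragments of overlapping pairs cannot be told apart. Eme2, the partner of Mrps34, was lower with it (log2 -0.50, q = 0.000287), and Cyb5rl, the partner of Mrpl37, was lower too (log2 -0.38, q = 0.00127), in the authors' deposited table. Other called partners stood beside a member that was not called. Ncapd2, a condensin subunit gene, was at 195 FPKM in induced and 152 FPKM in non-induced cells in the authors' deposited table (log2 0.36, q = 0.000287), while Mrpl51, whose start lies 100 bases away, was at 39.6 FPKM in induced and 40.6 FPKM in non-induced cells and was not called. Wdfy1 was at 3.30 FPKM in induced and 5.54 FPKM in non-induced cells there (log2 -0.75, q = 0.000287). Its partner Mrpl44, at 37.0 FPKM in induced and 38.9 FPKM in non-induced cells, was slightly lower too but not called (log2 -0.07). Whether partners share a start region that acts on both was not tested.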
